A study of Mus musculus with 12 samples.

Results

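The replication-dependent histone genes are the mouse genes that encode the bulk histones H1, H2A, H2B, H3 and H4 and that carry, in the deposited count table, symbols beginning with Hist1h, Hist2h, Hist3h or Hist4h. Of the 24419 genes in that table, 68 matched, and the 56 with at least 120 counts summed over the 12 libraries were taken as members. They comprised 5 H1, 13 H2a, 16 H2b, 10 H3 and 12 H4 genes, and all 56 passed the filter on low counts that left 15759 genes for testing. Just above the minimum stood Hist3h2ba with 502 counts and the pseudogene Hist3h2bb-ps with 698, and just below it stood Hist1h1t, the testis H1, with 116 and Hist2h2aa2 with 26. Of the 12 matching genes left out, 9 have a gene model that overlaps another histone gene on the same strand, and 6 of the 12 had 0 counts in every library.

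RNA sequencing was performed on mouse embryonic fibroblasts (MEFs) from C57BL/6 TN mice, 3 cultures for each of 4 genotypes, each culture from a separate embryo. The cultures were homozygous for Nras alleles that encode arginine (61R/R), histidine (61H/H), proline (61P/P) or the wild-type glutamine (61Q/Q) at the mutated residue. Every culture, 61Q/Q included, also carried the TN background of a silenced Nras knock-in with the melanocyte-specific Tyr::CreERT2 transgene, was treated in medium low in serum with a Cre and eGFP adenovirus (Adenoviral-CMV-Cre-eGFP) that removes the stop cassette, and was then grown for 6 days with serum. No culture without Cre was among the samples analysed here, so 61Q/Q is the reference for the effect of the mutant residue and not for infection or recombination. RNA was depleted of ribosomal RNA and not selected for poly(A) tails, so that mRNAs without a tail were captured.

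Replication-dependent histone genes are transcribed mainly in S phase, when new chromatin is assembled on replicated DNA. Their mRNAs have no introns and end in a conserved stem-loop instead of a poly(A) tail. The stem-loop is bound by SLBP, and the transcripts are degraded when DNA synthesis ends. In mouse most of these genes lie in a large cluster on chromosome 13 and a smaller one on chromosome 3, many as H2a and H2b pairs that share a promoter region and point away from each other.

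The stem-loops are shown because they set this mRNA class apart and because their variants follow histone type. The GENCODE M21 transcripts (GRCm38) of 38 of the 56 members held a stem of 6 base pairs that began with GG and enclosed 4 bases with T at loop positions 1 and 3, against 0.727% of all protein-coding genes. The form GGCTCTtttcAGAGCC was found in 20 members, none of them an H4 gene, and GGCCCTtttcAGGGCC in 6, all of them H4 genes. Each line gives the mRNA-sense DNA sequence with its flanks, with the paired arms in capitals.
Hist1h2bg (chr13:23571837-23571866, plus strand): cccaaaGGCTCTtttcAGAGCCacccatac
Hist1h1c (chr13:23739506-23739535, plus strand): ccaaaaGGCTCTtttcAGAGCCaccactcc
Hist1h3c (chr13:23745039-23745068, minus strand): aaaaaaGGCTCTtttaAGAGCCacctaaga
Hist2h2ac (chr3:96220410-96220439, minus strand): caaaaaGGCTCTttttAGAGCCaccaaatc
Hist1h4f (chr13:23551283-23551312, minus strand): ctcaaaGGCCCTtttcAGGGCCacccactt
Hist2h4 (chr3:96262931-96262960, minus strand): cctaacGGCCCTttttAGGGCCaaccacag
Hist1h4j (chr13:21735431-21735460, plus strand): cctaaaGGTCCTtttcAGGACCaccacatc
Hist1h3g (chr13:23535883-23535912, plus strand): tttaaaGGCTCTtcttAGAGCCacccatct
Hist1h4a (chr13:23760792-23760821, minus strand): accaaaGGCCCTtctcAGGGCCgcccacat
Of the 18 members without a match, 12 have a transcript annotated no further than the stop codon, where no stem-loop could be seen. The other 6 were Hist1h1a, Hist1h2af, Hist1h2ah, Hist2h3b and the genes with the longest annotated transcripts among them, Hist1h2bc (1156 bases) and Hist2h2be (2620 bases). In 34 of the 38 members with a match, the gene model used for counting ended 4 to 8 bases past the stem-loop, so that a read lying wholly beyond it would not be assigned to the member.

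Promoter sequences are shown for members whose values are described below, since motif content also differed between the histone types. RefSeq promoters (GRCm38.p6, 250 bases before to 50 bases after the start) were matched for 50 members and searched on both strands. CCAAT, the CCAAT box, was found in 42 of 50 member promoters (84%), against 37.4% of all 32851 promoters, with 3 of 11 H4 promoters and every other member promoter among them. TATAAA, the TATA box, was found in 62% of member promoters and 13.6% of all promoters. ATTTGCAT, the octamer bound by Oct1, was found in 6 of 13 H2a and 5 of 13 H2b promoters and in no other member, against 1.74% of all promoters. Member counts used the first promoter listed for a gene. Hist1h2be, an H2b gene, has another promoter (chr13:23585921-23586220) that holds the octamer and was not counted. Because paired genes point away from each other, an H2a and an H2b window can hold the same octamer. AAACACA, the AC box of H1 genes, was found in 4 of 5 H1, 1 of 13 H2a and 1 of 13 H2b promoters and 7.18% of all promoters. GGTCCG, part of the H4 element read by HINFP and added to the search after the windows had been seen, was found in 10 of 11 H4, 1 of 13 H2b and 1 of 8 H3 promoters and 8.25% of all promoters. Each line gives the 120 bases before the start, read toward the gene, with these motifs in capitals.
Hist1h1c (chr13:23738687-23738806, plus strand): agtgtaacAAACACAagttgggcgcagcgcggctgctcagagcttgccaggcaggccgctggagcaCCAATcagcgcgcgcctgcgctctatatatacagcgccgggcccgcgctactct
Hist2h2ac (chr3:96220881-96221000, minus strand): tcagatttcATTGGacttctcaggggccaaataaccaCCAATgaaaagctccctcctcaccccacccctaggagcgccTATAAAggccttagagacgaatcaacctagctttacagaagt
Hist2h2bb (chr3:96269580-96269699, plus strand): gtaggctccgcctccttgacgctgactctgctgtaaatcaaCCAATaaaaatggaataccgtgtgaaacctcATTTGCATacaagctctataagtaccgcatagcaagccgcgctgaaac
Hist1h3c (chr13:23745522-23745641, minus strand): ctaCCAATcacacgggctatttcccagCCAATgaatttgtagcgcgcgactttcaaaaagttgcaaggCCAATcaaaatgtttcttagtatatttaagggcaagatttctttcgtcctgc
Hist1h4f (chr13:23551669-23551788, minus strand): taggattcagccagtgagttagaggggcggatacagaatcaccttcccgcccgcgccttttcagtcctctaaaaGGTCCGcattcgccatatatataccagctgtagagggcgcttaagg
Hist1h4d (chr13:23581448-23581567, plus strand): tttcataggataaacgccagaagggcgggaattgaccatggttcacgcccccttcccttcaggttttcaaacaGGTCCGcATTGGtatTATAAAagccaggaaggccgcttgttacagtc
Hist1h4i (chr13:22041363-22041482, minus strand): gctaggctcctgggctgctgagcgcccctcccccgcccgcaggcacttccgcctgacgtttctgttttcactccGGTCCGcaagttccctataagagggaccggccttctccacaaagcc
The CCAAT box appears as ATTGG where it lies on the other strand. Hist1h4i, which is described below as the least changed H4 gene in 61R/R MEFs, holds the H4 element as Hist1h4f and Hist1h4d do.

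Libraries held between 73222911 and 92179519 counts, and the members took 0.119% to 0.300% of them. Unless stated, values are CPM, the count of a gene in each library scaled to a common size with TMM. Summed over the 56 members, the level was 2172, 2850.1 and 2885 CPM in 61R/R MEFs, 2302, 2324 and 2295 in 61H/H MEFs, 2482, 2220.0 and 2411 in 61P/P MEFs, against 1255, 2217 and 1363 in 61Q/Q. A pair of libraries stood apart from their genotype in the values of these members. 61Q/Q replicate 2 was above the other 61Q/Q libraries in 54 of 56 members and above at least 1 mutant library in 44. 61R/R replicate 1 was the lowest 61R/R library in 55 members and was below 61Q/Q replicate 2 in 37. 61Q/Q replicates 1 and 3 were both below all 9 mutant libraries in 52 members, and all 3 61Q/Q libraries were in 12. These orders were counted over the members only, with no share over all genes to set beside them. Counts of changed members are on all 12 libraries unless stated, and the counts without 61Q/Q replicate 2 follow them. 61Q/Q replicate 2 and 61R/R replicate 1 were picked from these same member values. Counts without them show how far the calls rest on single libraries and are not independent support. In bulk RNA, fewer cells in S phase and less histone mRNA per cell cannot be told apart.

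**Figure D1:**
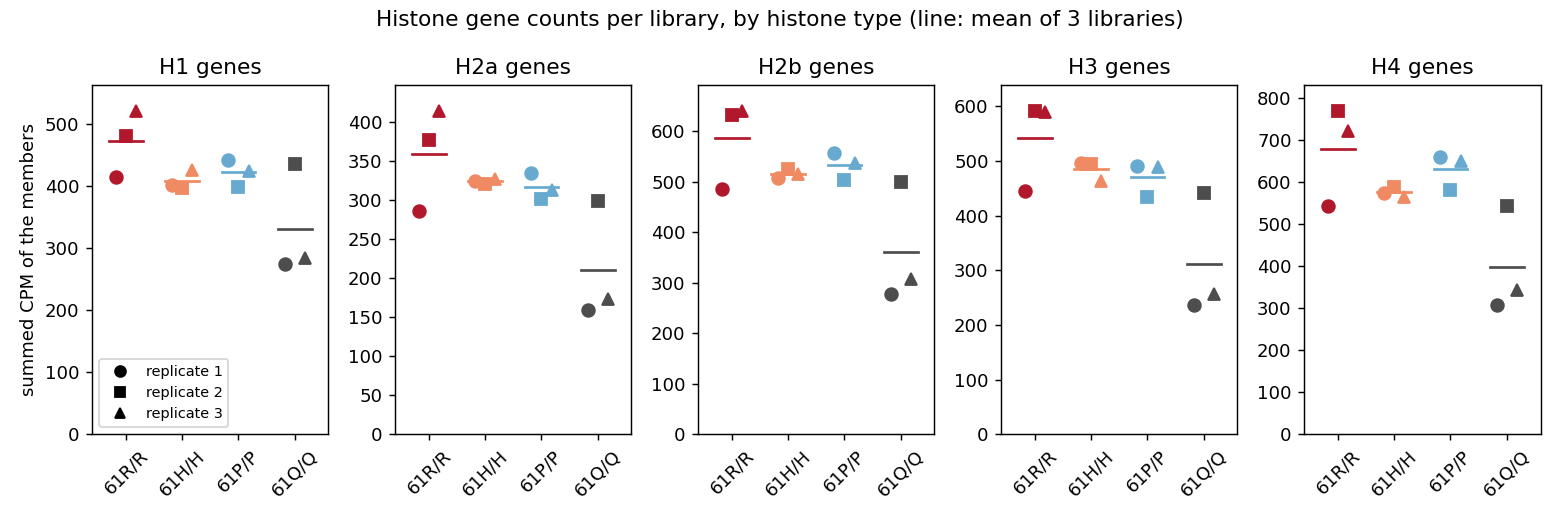
CPM summed over the H1, H2a, H2b, H3 and H4 members (y axes, from 0) in each of the 12 libraries, by genotype (x axes), with the mean of 3 libraries as a line. In every panel 61R/R replicates 2 and 3 lie highest and 61Q/Q replicates 1 and 3 lowest, and 61R/R replicate 1 lies beside 61Q/Q replicate 2, just above it for H3 and below it for the other types.

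Each mutant was compared with wild-type 61Q/Q, 3 libraries against 3, and the same 61Q/Q libraries served all 3 comparisons. Log2 changes are given with their standard errors. In 61R/R, 45 of 56 members rose and 0 fell at an adjusted p under 0.05 (edgeR quasi-likelihood test), while 9.43% of all tested genes rose and 9.59% fell. The median log2 change was 0.82 over the members and 0.01 over all genes, and the changes ranged from 0.14 to 1.13, positive in all 56. All 3 61R/R libraries were above all 3 61Q/Q libraries in 19 members (33.9%), against 17.9% of all genes. Without 61Q/Q replicate 2 the count was 54 (all genes 14.6%), and without both 61Q/Q replicate 2 and 61R/R replicate 1 it was 53 (all genes 17.9%). DESeq2 called 50 members higher on all 12 libraries (all genes 12.9%). Leaving out 61R/R replicate 2, 61R/R replicate 3, 61Q/Q replicate 1 or 61Q/Q replicate 3 each brought the edgeR count to 0, in fits in which 0% of all genes rose, while 47 to 49 members then had an unadjusted p under 0.05. By type, without 61Q/Q replicate 2, 5 of 5 H1, 13 of 13 H2a, 14 of 16 H2b, 10 of 10 H3 and 12 of 12 H4 genes rose in 61R/R MEFs. The median log2 change over the members stayed positive in each of these fits, at 0.64 or above.

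H4 genes, whose product forms the tetramer at the centre of the nucleosome with H3, included the most abundant member per length. In 61R/R 11 of 12 rose, with a median log2 change of 0.79. Hist1h4d (chr13:23581602-23581969, plus strand) averaged 251 RPKM, and its level was 85.9, 127 and 116 CPM in 61R/R MEFs, 94.1, 90.3 and 95.2 in 61H/H MEFs, 107, 94.6 and 102 in 61P/P MEFs, against 50.1, 89.4 and 53.3 in 61Q/Q. Its 61R/R libraries overlapped 61Q/Q only through 61R/R replicate 1 and 61Q/Q replicate 2, and it rose by 0.77 ± 0.20 on the log2 scale (SE, adjusted p = 0.0271). Hist1h4h (210.4 RPKM) rose by 0.67 ± 0.16, and Hist1h4f (157 RPKM) by 0.90 ± 0.20 (adjusted p = 0.0202). The largest change of any member was that of Hist1h4j, whose level was 20.7, 31.9 and 35.1 CPM in 61R/R MEFs, 21.5, 22.1 and 24.6 in 61H/H MEFs, 23.9, 22.4 and 22.5 in 61P/P MEFs, against 8.63, 20.8 and 10.7 in 61Q/Q. It rose by 1.13 ± 0.28 (adjusted p = 0.0246), with 61R/R replicate 1 just below 61Q/Q replicate 2. Hist1h4i was the H4 gene that was not called, at 8.30, 11.3 and 11.1 CPM in 61R/R MEFs, 8.55, 8.26 and 8.90 in 61H/H MEFs, 8.85, 7.87 and 8.82 in 61P/P MEFs, against 6.91, 9.14 and 8.41 in 61Q/Q, a log2 change of 0.33 ± 0.13 (adjusted p = 0.0985). It was called without 61R/R replicate 1 (0.46, adjusted p = 0.0160) and without 61Q/Q replicate 2 (0.42, adjusted p = 0.0497).

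H3 genes rose in 61R/R in all 10 of 10 cases, with a median log2 change of 0.82. Hist1h3c (chr13:23745042-23745521, minus strand), the most abundant at 189.6 RPKM, had 88.0, 116 and 115 CPM in 61R/R MEFs, 103, 101 and 90.8 in 61H/H MEFs, 99.4, 88.2 and 97.5 in 61P/P MEFs, against 51.5, 88.9 and 52.0 in 61Q/Q. It rose by 0.73 ± 0.19 (adjusted p = 0.0271), and of the 61R/R libraries only replicate 1 fell below 61Q/Q replicate 2. Hist1h3e (147 RPKM) had 68.5, 98.1 and 95.0 CPM in 61R/R MEFs, 82.9, 76.2 and 71.2 in 61H/H MEFs, 70.8, 62.6 and 71.5 in 61P/P MEFs, against 32.5, 66.1 and 35.4 in 61Q/Q, with no overlap of 61R/R and 61Q/Q libraries, and rose by 0.96 ± 0.23 (adjusted p = 0.0230). Hist1h3g and Hist2h3b, also at 0.96, and Hist1h3e had the largest changes among H3 genes. Hist1h3b (95.4 RPKM) had the smallest, 0.41 ± 0.12 (adjusted p = 0.0360).

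H2a genes encode a partner of H2B in the dimers that flank the tetramer. In 61R/R 11 of 13 rose, with a median log2 change of 0.87. The most abundant, Hist1h2ab (chr13:23751088-23751592, plus strand), averaged 94.0 RPKM and had 48.0, 51.9 and 58.1 CPM in 61R/R MEFs, 44.7, 45.8 and 49.1 in 61H/H MEFs, 48.6, 48.4 and 52.6 in 61P/P MEFs, against 35.4, 51.2 and 36.1 in 61Q/Q. It had the smallest H2a change, 0.36 ± 0.13, and was not called (adjusted p = 0.0629). Hist2h2ac (80.5 RPKM), in the chromosome 3 cluster, had 36.7, 50.4 and 49.6 CPM in 61R/R MEFs, 45.9, 43.0 and 39.7 in 61H/H MEFs, 39.3, 35.4 and 38.3 in 61P/P MEFs, against 18.1, 35.6 and 20.2 in 61Q/Q. Its 61R/R and 61Q/Q libraries did not overlap, and it rose by 0.89 ± 0.21 (adjusted p = 0.0233). Hist1h2ak (73.4 RPKM) rose by 0.85 ± 0.22, and Hist1h2ai, the largest H2a change, by 1.10 ± 0.27 (adjusted p = 0.0241).

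H2b genes rose in 10 of 16 cases in 61R/R MEFs, with a median log2 change of 0.86. Hist2h2bb (chr3:96269700-96270192, plus strand), the most abundant at 189 RPKM, had 91.0, 127 and 113 CPM in 61R/R MEFs, 104, 99.9 and 94.9 in 61H/H MEFs, 106, 100.04 and 104 in 61P/P MEFs, against 41.9, 91.4 and 46.3 in 61Q/Q. It rose by 0.88 ± 0.24 (adjusted p = 0.0309), with 61R/R replicate 1 and 61Q/Q replicate 2 nearly level. Hist1h2bg (100.5 RPKM) rose by 0.79 ± 0.23 and Hist1h2bh, the largest H2b change, by 1.02 ± 0.30 (adjusted p = 0.0398). The 6 H2b genes not called were Hist1h2bc, Hist1h2bf, Hist1h2bp, Hist2h2be and both genes nearest the count minimum, Hist3h2ba and Hist3h2bb-ps. Hist3h2ba, at 0.252 to 0.743 CPM over all libraries, had a log2 change of 0.28 ± 0.39, and Hist3h2bb-ps, at 0.277 to 1.35 CPM, one of 0.92 ± 0.39.

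H1 genes encode the linker histones that bind DNA between nucleosomes. In 61R/R 3 of 5 rose, with a median log2 change of 0.70. Hist1h1b, the largest change, rose by 0.79 ± 0.25, Hist1h1d (107 RPKM) by 0.76 ± 0.21 and Hist1h1e (116 RPKM) by 0.60 ± 0.19. Hist1h1c (chr13:23738807-23739531, plus strand), the most abundant H1 gene at 182 RPKM, had 133, 148 and 149.7 CPM in 61R/R MEFs, 121, 123 and 126 in 61H/H MEFs, 136, 124 and 136 in 61P/P MEFs, against 123, 140.4 and 126 in 61Q/Q, and its 61R/R and 61Q/Q libraries overlapped. Its log2 change was 0.14 ± 0.07 (adjusted p = 0.153), and Hist1h1a, at 0.70 ± 0.23, also missed the threshold (adjusted p = 0.0554). H1 genes made up 16.9% to 19.0% of member counts in 61R/R MEFs, 17.0% to 18.5% in 61H/H MEFs and 17.6% to 17.9% in 61P/P MEFs, against 19.6% to 21.9% in 61Q/Q, so that every mutant library was below every 61Q/Q library in this share. Within the H1 genes, Hist1h1c took 32.2, 30.8 and 28.8% in 61R/R MEFs, 30.3, 31.1 and 29.7 in 61H/H MEFs, 30.9, 31.1 and 32.0 in 61P/P MEFs, against 45.01, 32.2 and 44.6 in 61Q/Q. 61Q/Q replicate 2 lay near the mutant libraries in this share, and 61Q/Q replicates 1 and 3 lay above them.

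**Figure D2:**
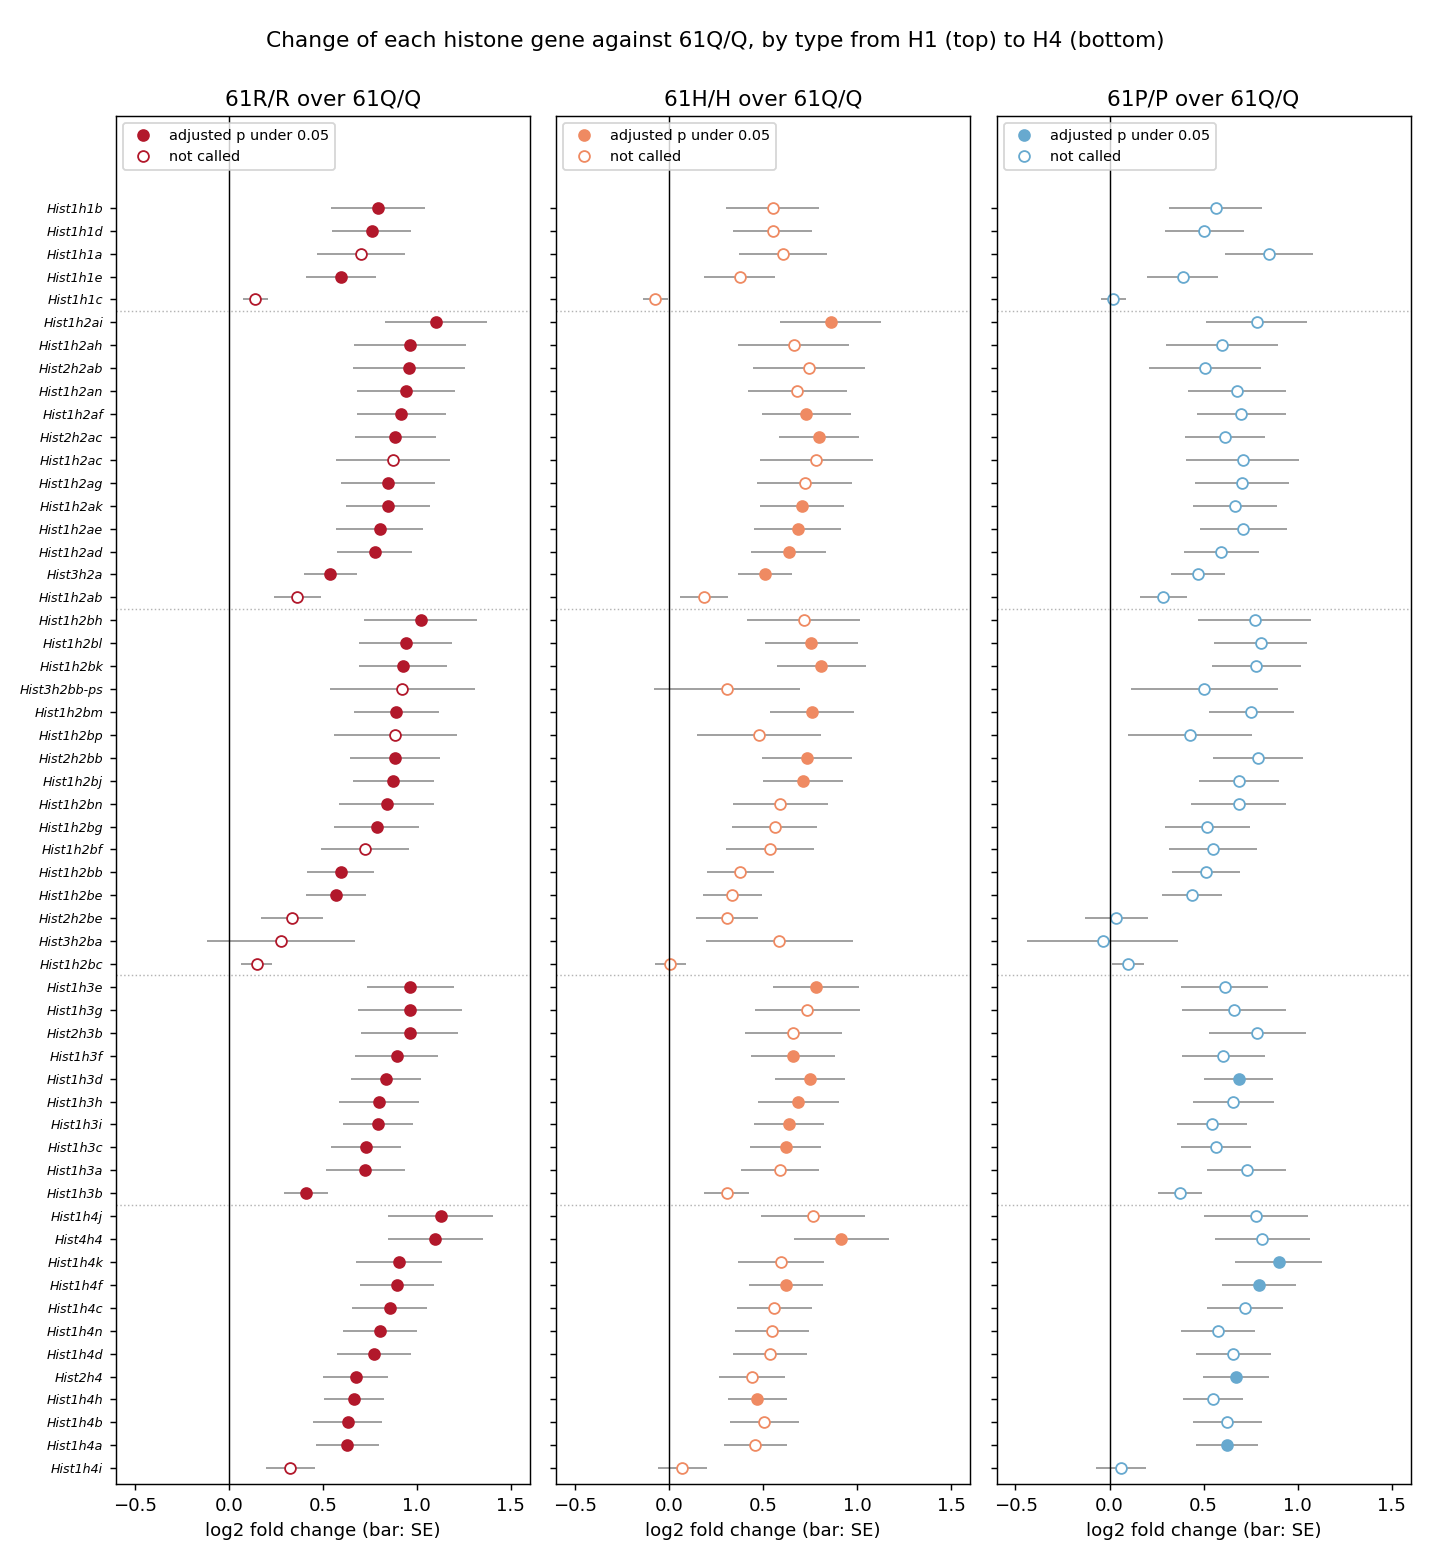
Log2 fold change against 61Q/Q (x axis) with its standard error (bar) for each of the 56 members (rows), one panel per mutant, grouped by type from H1 at the top to H4 at the bottom. Filled points passed an adjusted p of 0.05, which 45, 21 and 5 members did, and Hist1h1c and Hist1h2bc lie near 0 in all 3 panels.

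In 61H/H, 21 of 56 members rose and 0 fell, against 13.8% and 14.5% of all genes. The median log2 change was 0.61 (0.01 over all genes), and 55 of 56 changes were positive. All 61H/H libraries were above all 61Q/Q libraries in 30 members (53.6%), against 24.5% of all genes. By type, 0 of 5 H1, 7 of 13 H2a, 5 of 16 H2b, 6 of 10 H3 and 3 of 12 H4 genes rose, with medians of 0.55, 0.71, 0.57, 0.66 and 0.54. Without 61Q/Q replicate 2, 4 of 5 H1, 13 of 13 H2a, 13 of 16 H2b, 10 of 10 H3 and 11 of 12 H4 genes rose in 61H/H MEFs. Hist1h3d, an H3 gene, had the smallest adjusted p of any member in 61H/H MEFs. Its level was 31.3, 37.0 and 36.5 CPM in 61R/R MEFs, 33.9, 33.2 and 31.7 in 61H/H MEFs, 32.6, 30.6 and 31.4 in 61P/P MEFs, against 14.8, 27.7 and 16.2 in 61Q/Q, and it rose by 0.75 ± 0.19 (adjusted p = 0.0143). Of the most abundant gene of each type, Hist2h2bb rose by 0.73 ± 0.24 and Hist1h3c by 0.62 ± 0.19. The others, Hist1h4d (0.54 ± 0.20), Hist1h2ab (0.18 ± 0.13) and Hist1h1c (-0.07 ± 0.07), were not called (adjusted p = 0.0629, 0.287 and 0.432). Hist2h2ac rose by 0.80 ± 0.21, Hist1h3e by 0.78 ± 0.23 and Hist1h4h by 0.47 ± 0.16.

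The 61H/H count depended on single libraries. It was 51 without 61Q/Q replicate 2 (all genes 17.8%) and 0 without 61Q/Q replicate 1 or 61Q/Q replicate 3, where 5.69% and 4.96% of all genes rose and 18 members had an unadjusted p under 0.05 in each. Without 61H/H replicate 1, 61H/H replicate 2 or 61H/H replicate 3 it was 1, 1 and 8, where 6.05%, 7.14% and 9.59% of all genes rose. It was 51 without both 61R/R replicate 1 and 61Q/Q replicate 2 (all genes 19.2%), with a median log2 change of 1.00 in the fit without 61Q/Q replicate 2 alone. DESeq2 called 39 members higher (all genes 16.1%).

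In 61P/P, 5 of 56 members rose and 0 fell, against 3.15% and 3.69% of all genes. The median log2 change was 0.63 (0.01 over all genes), and 55 of 56 changes were positive. All 61P/P libraries were above all 61Q/Q libraries in 27 members (48.2%), against 13.9% of all genes. By type the medians were 0.50 for H1, 0.67 for H2a, 0.53 for H2b, 0.63 for H3 and 0.66 for H4. The members that rose were 4 H4 genes and 1 H3 gene. Hist1h4k had 39.9, 58.8 and 52.2 CPM in 61R/R MEFs, 41.2, 41.1 and 39.4 in 61H/H MEFs, 54.0, 46.1 and 50.1 in 61P/P MEFs, against 18.4, 39.4 and 22.8 in 61Q/Q, and rose by 0.90 ± 0.23 (adjusted p = 0.0426). Hist1h4f had 51.7, 84.4 and 68.6 CPM in 61R/R MEFs, 57.0, 60.3 and 51.9 in 61H/H MEFs, 66.5, 55.8 and 68.7 in 61P/P MEFs, against 28.3, 47.5 and 34.1 in 61Q/Q. In both genes every 61P/P library was above every 61Q/Q library, and Hist1h4f rose by 0.80 ± 0.20 (adjusted p = 0.0389). Hist2h4, the H4 gene of the chromosome 3 cluster, rose by 0.67 ± 0.18, Hist1h4a by 0.62 ± 0.17 and Hist1h3d by 0.69 ± 0.19 (adjusted p = 0.0461, 0.0483 and 0.0497). Without 61Q/Q replicate 2 the count was 49 (all genes 8%), made up of 4 H1, 13 H2a, 11 H2b, 10 H3 and 11 H4 genes. It was 0 without any 1 of the other 61Q/Q libraries or the 61P/P libraries, and also without 61R/R replicate 3, 61H/H replicate 2 or 61H/H replicate 3, which enter only through the shared estimate of the spread and the scaling. In these fits 0% to 2.53% of all genes rose and 22 to 46 members had an unadjusted p under 0.05. The count was 3 without 61R/R replicate 2 (all genes 3%), 1 without 61H/H replicate 1 (all genes 2.75%) and 9 without 61R/R replicate 1 (all genes 4.6%). Without both 61R/R replicate 1 and 61Q/Q replicate 2 it was 50 (all genes 10%). DESeq2 called 35 members higher (all genes 7.39%).

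The mutants were then compared with each other, since the study set 61R/R and 61H/H, whose mice developed melanoma, apart from 61P/P. No member passed the test in 61R/R over 61H/H, where 0% of all genes were higher and 0% lower, and 1 member, Hist1h1c at 0.21 ± 0.07, had an unadjusted p under 0.05 (adjusted p = 0.928). By the same edgeR test none passed in 61R/R over 61P/P (1.85% of all genes higher and 1.6% lower, members with an unadjusted p under 0.05 upward 0, downward 0), nor in 61H/H over 61P/P (1.47% and 1.02%, members upward 0, downward 0). DESeq2 also called 0 members in each of these comparisons. The median log2 difference of the members was 0.19 in 61R/R over 61H/H, 0.17 in 61R/R over 61P/P and -0.004 in 61H/H over 61P/P, and 55, 54 and 28 of 56 differences were positive. For Hist1h4d the 3 differences were 0.24 ± 0.20, 0.11 ± 0.20 and -0.12 ± 0.20 on the log2 scale, and for Hist2h2ac they were 0.09 ± 0.21, 0.27 ± 0.21 and 0.19 ± 0.21. Standard errors of this size leave room for differences in either direction. With both 61R/R replicate 1 and 61Q/Q replicate 2 left out, 33 members were higher in 61R/R than in 61P/P MEFs (all genes 7.15%), while leaving out either library alone gave 0 members. Because 61R/R replicate 1 was left out for its low member values, the count of 33 is not independent evidence of a difference.

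Some members differed little across genotypes. Hist1h1c, Hist1h2bc and Hist2h2be are histone genes for which polyadenylated transcripts are known beside or in place of the stem-loop form, and on all 12 libraries none of the 3 was called in any mutant. Without 61Q/Q replicate 2, Hist1h1c was called in 61R/R MEFs at a log2 change of 0.20 (edgeR adjusted p = 0.0442), and Hist1h2bc and Hist2h2be were not called in any mutant. Hist1h2bc (chr13:23684199-23692480, plus strand), at 102 RPKM the second most abundant H2b gene, had 77.1, 84.6 and 90.1 CPM in 61R/R MEFs, 74.0, 76.9 and 77.0 in 61H/H MEFs, 82.4, 77.6 and 82.9 in 61P/P MEFs, against 65.7, 79.1 and 82.2 in 61Q/Q. Each mutant overlapped 61Q/Q, and its log2 changes were 0.15 ± 0.08 in 61R/R MEFs, 0.01 ± 0.08 in 61H/H MEFs and 0.10 ± 0.08 in 61P/P MEFs. The log2 changes of Hist1h1c were 0.14, -0.07 and 0.02. Hist2h2be, at 0.725 RPKM over a model of 2618 bases, had 1.88, 2.38 and 2.10 CPM in 61R/R MEFs, 2.04, 2.16 and 2.04 in 61H/H MEFs, 1.35, 1.93 and 1.89 in 61P/P MEFs, against 1.68, 1.56 and 1.80 in 61Q/Q, with log2 changes of 0.34 ± 0.17, 0.31 ± 0.17 and 0.04 ± 0.17. Its 61R/R and 61H/H libraries lay above all 61Q/Q libraries, but the changes missed the threshold (adjusted p = 0.167 and 0.182). Hist1h4i, which holds a stem-loop in its transcript, had log2 changes of 0.07 ± 0.13 in 61H/H MEFs and 0.06 ± 0.13 in 61P/P MEFs.

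The pairs of members that point away from each other over at most 1000 bases, 11 in all, showed where neighbours parted. In 9 of the 11 the 61R/R log2 changes of both genes lay between 0.54 and 1.10. The other pairs, Hist1h2ac with Hist1h2bc and Hist2h2ac with Hist2h2be, each hold a gene with known polyadenylated transcripts. Long annotated transcripts were not particular to such genes. The transcript of Hist1h2ac runs 2010 bases past its stem-loop. That of Hist4h4, which rose by 1.10 in 61R/R MEFs, runs 2445 bases past it. Whether transcript form bears on the changes was not tested. Hist1h2ac starts 239 bases from Hist1h2bc and had 20.2, 27.5 and 33.6 CPM in 61R/R MEFs, 26.2, 23.2 and 27.0 in 61H/H MEFs, 26.3, 23.0 and 23.2 in 61P/P MEFs, against 8.26, 23.6 and 12.4 in 61Q/Q. Its log2 changes were 0.87 ± 0.30 in 61R/R MEFs, 0.78 ± 0.30 in 61H/H MEFs and 0.71 ± 0.30 in 61P/P MEFs, all short of the threshold (adjusted p = 0.0627, 0.0723 and 0.157). The ratio of Hist1h2ac to Hist1h2bc CPM was 0.263, 0.325 and 0.373 in 61R/R MEFs, 0.353, 0.302 and 0.350 in 61H/H MEFs, 0.319, 0.296 and 0.280 in 61P/P MEFs, against 0.126, 0.299 and 0.151 in 61Q/Q. In this ratio too 61Q/Q replicate 2 lay among the mutants and 61Q/Q replicates 1 and 3 lay below them.

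**Figure D3:**
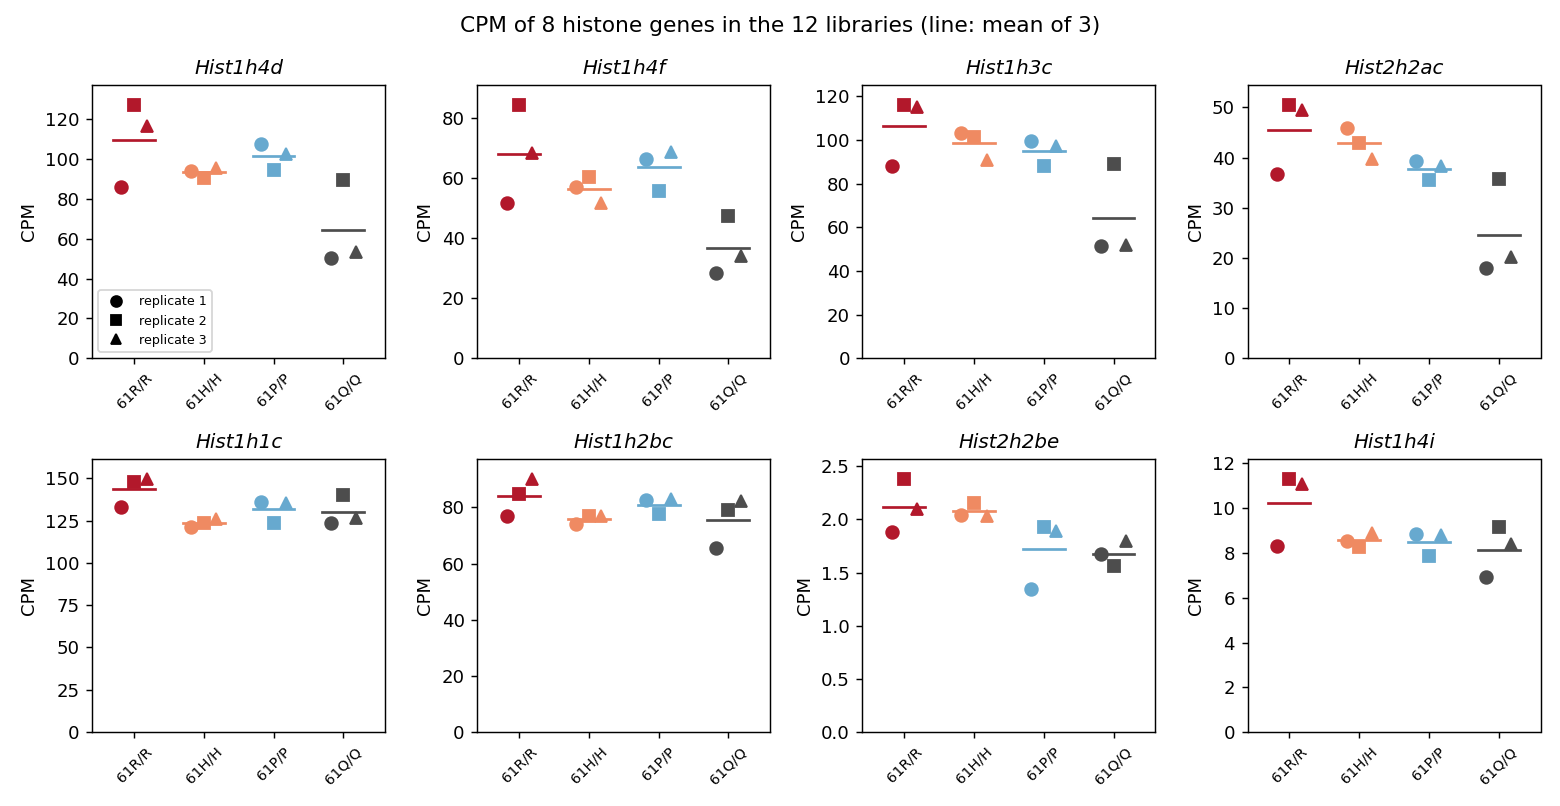
CPM (y axes, from 0) of 8 members in the 12 libraries by genotype (x axes), with the mean of 3 libraries as a line. In the upper row (Hist1h4d, Hist1h4f, Hist1h3c, Hist2h2ac) 61Q/Q replicates 1 and 3 lie below all mutant libraries, and in the lower row (Hist1h1c, Hist1h2bc, Hist2h2be, Hist1h4i) each mutant overlaps 61Q/Q, except that the 61R/R and 61H/H libraries of Hist2h2be lie above it.

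Changes were spread over the genomic clusters. The 18 members at chr13:21715713-22043658 had median log2 changes of 0.88 in 61R/R MEFs, 0.68 in 61H/H MEFs and 0.68 in 61P/P MEFs, and 16 rose in 61R/R MEFs. The 28 members at chr13:23531044-23764412 had medians of 0.75 in 61R/R MEFs, 0.56 in 61H/H MEFs and 0.61 in 61P/P MEFs, and 22 rose in 61R/R MEFs. In the chromosome 3 cluster of 6 members (chr3:96219916-96270192) the medians were 0.88 in 61R/R MEFs, 0.70 in 61H/H MEFs and 0.64 in 61P/P MEFs, and 5 rose in 61R/R MEFs. Of the 3 members on chromosome 11 only Hist3h2a rose in 61R/R MEFs (0.54 ± 0.14), and Hist4h4, alone on chromosome 6, rose by 1.10 ± 0.25 in 61R/R MEFs and 0.92 ± 0.25 in 61H/H MEFs. Without 61Q/Q replicate 2 the members that rose in 61R/R MEFs numbered 18 and 27 in these stretches of chromosome 13, 5 on chromosome 3 and 3 on chromosome 11. The coordinates are those of the gene models in the count table (mm10).

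Genes that act with the histone genes were described from lists chosen for their roles. Over all genes, 9.43% rose in 61R/R MEFs, 13.8% in 61H/H MEFs and 3.15% in 61P/P MEFs on all 12 libraries. Without 61Q/Q replicate 2 these shares were 14.6%, 17.8% and 8%, and without 61R/R replicate 1 they were 13.6%, 14.8% and 4.6%. Of 23 replication fork genes 18 in 61R/R MEFs, 10 in 61H/H MEFs and 3 in 61P/P MEFs rose and 0 fell, with median log2 changes of 0.54, 0.43 and 0.40. Gins1, a subunit of the replicative helicase, rose by 0.72 ± 0.17 in 61R/R MEFs and 0.70 ± 0.17 in 61H/H MEFs, and Rrm2, a subunit of ribonucleotide reductase, by 0.61 ± 0.15 and 0.62 ± 0.15. Rpa1, which binds single-stranded DNA, rose by 0.33 ± 0.08 in 61R/R MEFs, 0.34 ± 0.08 in 61H/H MEFs and 0.30 ± 0.08 in 61P/P MEFs. Of 16 mitosis genes 13 in 61R/R MEFs, 10 in 61H/H MEFs and 1 in 61P/P MEFs rose, with medians of 0.61, 0.55 and 0.51. Ttk, a spindle checkpoint kinase, rose by 0.78 ± 0.19 in 61R/R MEFs and 0.63 ± 0.19 in 61H/H MEFs, and Cdc20, which activates the anaphase-promoting complex, by 0.67 ± 0.17 in 61P/P MEFs. In both lists 61Q/Q replicate 2 was also the highest 61Q/Q library by its sum. The replication fork genes summed to 1024, 1161 and 1143 CPM in 61R/R MEFs, 1119, 1065 and 1019.9 in 61H/H MEFs, 1017, 985 and 1085 in 61P/P MEFs, against 692, 1019.7 and 691 in 61Q/Q, and without 61Q/Q replicate 2 all 23 replication fork genes and all 16 mitosis genes rose in each mutant. In the fits in which no gene was called in 61R/R MEFs, named above, no gene of any list was called there either. The medians of both lists were below those of the histone members in each mutant, which is a description of the lists and was not tested.

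Of 15 histone chaperones and deposition factors 8 in 61R/R MEFs, 5 in 61H/H MEFs and 0 in 61P/P MEFs rose (medians 0.29, 0.27 and 0.18), and without 61Q/Q replicate 2 the counts were 12 in 61R/R MEFs, 11 in 61H/H MEFs and 10 in 61P/P MEFs, with 1 lower in 61H/H MEFs. Without 61R/R replicate 1, 1 rose in 61P/P MEFs. Asf1b, which carries new H3 and H4, rose by 0.74 ± 0.17 in 61R/R MEFs, and Nap1l1, a chaperone of H2A and H2B, by 0.46 ± 0.09 in 61H/H MEFs. Of 17 tested genes of histone mRNA 3′ end processing and decay 4 in 61R/R MEFs, 6 in 61H/H MEFs and 1 in 61P/P MEFs rose (medians 0.11, 0.14 and 0.06). The counts were 6 in 61R/R MEFs, 6 in 61H/H MEFs and 4 in 61P/P MEFs without 61Q/Q replicate 2, with 1 gene that fell in each of 61H/H and 61R/R MEFs, and 7, 6 and 2 without 61R/R replicate 1. Slbp, which binds the stem-loop, rose by 0.33 ± 0.09 in 61R/R MEFs and 0.30 ± 0.09 in 61H/H MEFs (adjusted p = 0.0323 and 0.0321), and its log2 change was 0.28 ± 0.09 in 61P/P MEFs (adjusted p = 0.0821). Zfp473, a zinc finger protein of the histone pre-mRNA processing complex, rose by 0.75 ± 0.18 in 61R/R MEFs, 0.60 ± 0.18 in 61H/H MEFs and 0.98 ± 0.18 in 61P/P MEFs, at mean levels of 0.755, 0.680 and 0.888 CPM, against 0.449 CPM in 61Q/Q. The 10 genes listed for histone gene transcription include transcription factors and also the kinase gene Cdk2 and the cyclin genes Ccne1 and Ccne2. Of these 10 genes 0 in 61R/R MEFs, 1 in 61H/H MEFs and 0 in 61P/P MEFs rose (medians 0.15, 0.07 and 0.05), and Yy1 was the gene that did (0.17 ± 0.05). Over all genes 9.43%, 13.8% and 3.15% rose, so on all 12 libraries this list did not stand above all genes in its share of calls. Its log2 changes were positive in 10 of 10 genes in 61R/R MEFs, 8 in 61H/H MEFs and 8 in 61P/P MEFs. The median over all genes was 0.01 in each comparison. Without 61Q/Q replicate 2, 4 rose in 61R/R MEFs, 4 in 61H/H MEFs and 3 in 61P/P MEFs (all genes 14.6%, 17.8% and 8%). Npat, the coactivator of histone gene transcription, had a log2 change of 0.02 ± 0.05 in 61R/R MEFs. Of 11 replacement histone variants, which are made outside S phase as well, 4 in 61R/R MEFs, 3 in 61H/H MEFs and 0 in 61P/P MEFs rose and 1 fell in 61H/H MEFs (medians 0.30, 0.28 and 0.23), and without 61Q/Q replicate 2 the numbers that rose were 6 in 61R/R MEFs, 5 in 61H/H MEFs and 4 in 61P/P MEFs. Without 61R/R replicate 1, 2 rose in 61P/P MEFs. Cenpa, the centromeric H3, rose by 0.65 ± 0.16 in 61R/R MEFs and 0.57 ± 0.16 in 61H/H MEFs, and H2afj by 0.41 ± 0.09 and 0.38 ± 0.09. H1f0, the linker histone of arrested cells, fell in 61H/H by 0.28 ± 0.07. Of the germline genes, Hist1h1t averaged 0.0906 CPM in 61R/R MEFs and 0.149 CPM in 61Q/Q and was not called, and Hist1h2aa and Hist1h2ba were too low to be tested.

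**Figure D4:**
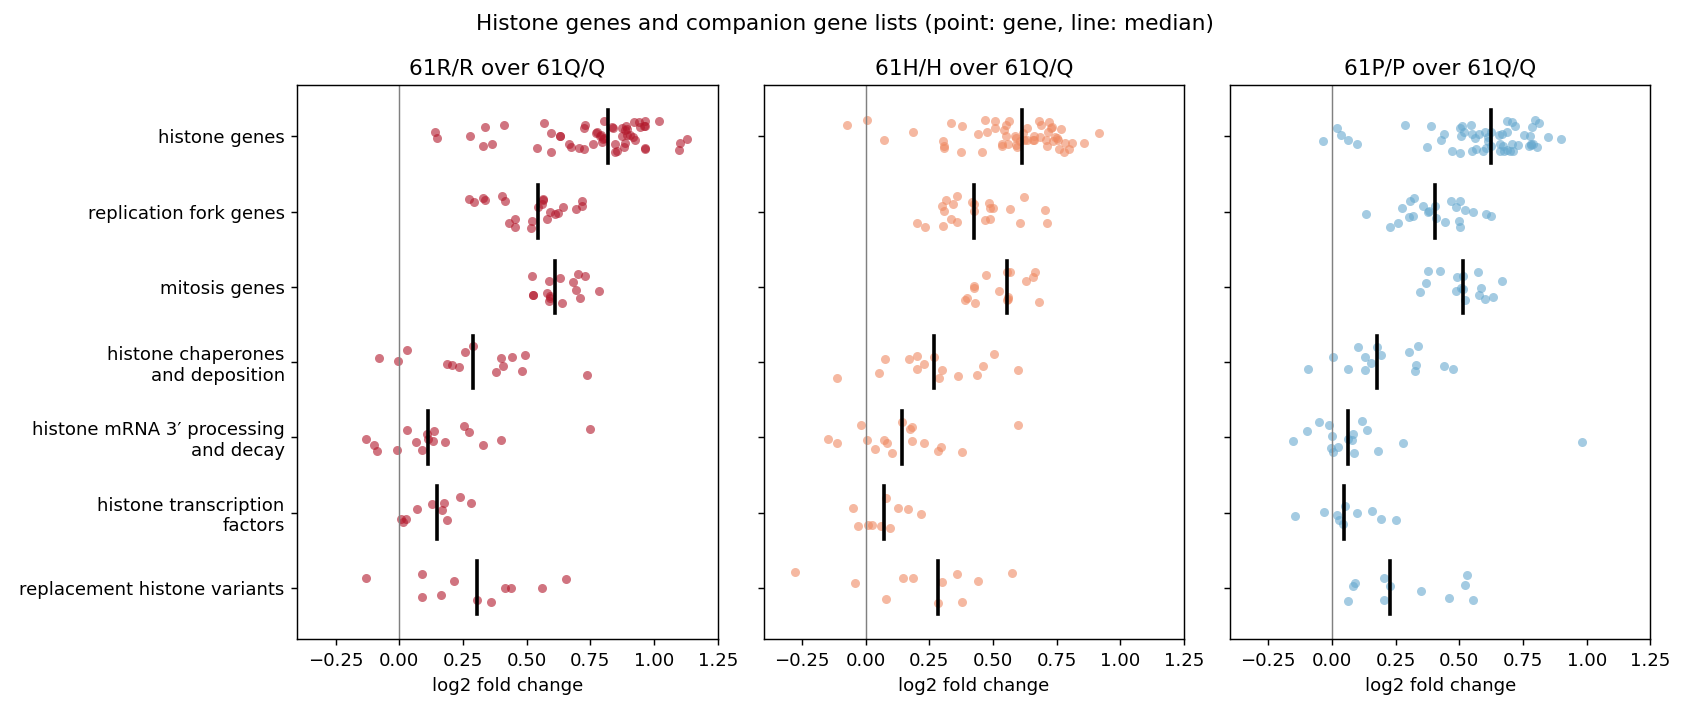
Log2 fold change against 61Q/Q (x axes) of each histone member and of each tested gene of 6 companion lists (rows), one panel per mutant, with the median of each list as a line. The histone genes have the highest median in each panel, followed by mitosis and replication fork genes. The transcription factor list also holds Cdk2, Ccne1 and Ccne2. Its medians and those of the 3′ processing list lie between 0.05 and 0.15.

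Cell type markers moved with the genotypes as well. Over all genes on all 12 libraries, 9.43% rose and 9.59% fell in 61R/R MEFs. In 61H/H MEFs 13.8% rose and 14.5% fell, and in 61P/P MEFs 3.15% rose and 3.69% fell. The 10 fibroblast markers summed to 20779 to 37359.9 CPM in 61R/R MEFs, 21076 to 23823 CPM in 61H/H MEFs and 32901 to 37212 CPM in 61P/P MEFs, against 44361 to 62109.5 CPM in 61Q/Q, and 5 fell and 1 rose in 61R/R MEFs, 6 fell and 2 rose in 61H/H MEFs, and 1 fell in 61P/P MEFs (5 fell there without 61R/R replicate 1). Among them Col1a1, a collagen gene, fell in 61R/R by 1.33 ± 0.31, and Pdgfra, a growth factor receptor, rose by 1.10 ± 0.26. 61R/R replicate 1 stood apart in the fibroblast sum, at 37359.9 CPM against 20779 and 22176 in 61R/R replicates 2 and 3. For Col1a1 these libraries had 11142, 4379 and 4777 CPM. The matrix genes Col1a1, Col1a2, Col3a1 and Fn1 made up most of the fibroblast sum in every library. In each mutant 4 of the 10 fibroblast markers had positive log2 changes, so the sum does not stand for the list as a whole. The 10 macrophage markers summed to 125 to 230.0 CPM in 61R/R MEFs, 113 to 171 CPM in 61H/H MEFs and 113 to 287 CPM in 61P/P MEFs, against 201 to 295 CPM in 61Q/Q, and 2 fell in 61R/R MEFs, 5 in 61H/H MEFs and 2 in 61P/P MEFs, while without 61R/R replicate 1 the counts were 1, 3 and 2. The 6 epithelial markers summed to at most 9.53 CPM and the 4 endothelial markers to at most 12.9 CPM in any library. Krt5 and Krt14, defining keratinocyte markers, were at 0 in some libraries, and no marker was at 0 in all of them. Of the epithelial markers 1 of 5 tested rose in 61R/R MEFs and 1 fell in 61P/P MEFs, and 1 of 4 endothelial markers rose in each mutant. No epithelial marker rose and 1 fell in each mutant without 61Q/Q replicate 2. For fits that left out a library, the share of all genes that fell is not set beside these counts. The same holds for the genes of the companion lists that fell in such fits. The part of cell composition in the histone values was not tested. Embryos of both sexes were present in every genotype, and with embryo sex, read from Xist and Y-linked genes, as a covariate 41 members rose in 61R/R MEFs (all genes 8.29%), 17 in 61H/H MEFs (all genes 13.3%) and 1 in 61P/P MEFs (all genes 2.57%).

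Values of single members carry a limit from sequence identity. In 51 of 56 members at least 1 stretch of 100 bases of the transcript occurs in another gene, the median share of such stretches was 32.0%, and in 17 members it was over 50%. Where the transcript runs past the counted model, the share can understate the identity within the model. The Hist1h2ac transcript, for example, has 2482 bases and its model 487. How reads that matched several copies were counted is not given in the sources used here, so the split of counts within a type is less certain than the sum over it. Hist1h4d, Hist1h1a, Hist1h1b, Hist2h2be and Hist2h4 share no such stretch. The gene model of Hist1h4n overlaps that of Hist1h4m on the same strand, so its count of 50667 over the 12 libraries may not hold every read from it.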

How the data were processed

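Ribosome-depleted total RNA was sequenced from 12 MEF cultures. The authors aligned reads to mm10 with STAR, used Picard 2.17.11, and deposited raw counts per gene from featureCounts, and the tools are those named in the submitters' processing notes. A table of DESeq-normalized counts was not used here. Strand setting, the handling of reads with several matches and the sequencer of each library are not given in the sources used here. The counts were analysed in R 4.3.3 with edgeR 4.0.16 (filterByExpr by genotype, TMM, a quasi-likelihood F-test on 1 fit of all 12 libraries, Benjamini-Hochberg adjustment over 15759 genes, called at an adjusted p under 0.05). The biological coefficient of variation was 15.7%. RPKM used the model lengths of the count table. DESeq2 1.42.0 and limma-voom (limma 3.58.1), other scalings and filters, a replicate block, fits of 2 genotypes, each library left out, and embryo sex as a covariate (added after seeing the data) were alternatives, and the scripts were tested on simulated data.

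The members and gene lists were chosen with earlier results of these data known. Named members were, per type, the 3 with the highest RPKM and those with the largest and smallest change in 61R/R, with those called in 61P/P or between mutants, genes with known polyadenylated or germline transcripts, and the genes beside the minimum. Companion genes were those with the smallest p, and Cdc20, Npat, Slbp in 61P/P, Col1a1 and Pdgfra were chosen after their values were seen. Promoters were taken from RefSeq and transcripts from GENCODE M21. The stem-loop rule and GGTCCG were set after the sequences had been seen. Protein identity between members was not computed. Replicate numbers did not pair the cultures: deviations from the genotype means correlated above 0.1 in 6 of 18 same-numbered pairs.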

Additional observations from a re-analysis of the deposited data

How the results depend on the processing

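No member fell in any mutant against 61Q/Q under any of the 24 settings, and no called result changed sign. Leaving out 1 library at a time gave 0 to 54 members higher in 61R/R MEFs, 0 to 51 in 61H/H MEFs and 0 to 49 in 61P/P MEFs, with median log2 changes of 0.64 to 1.18, 0.44 to 1.00 and 0.46 to 1.00. Leaving out both 61R/R replicate 1 and 61Q/Q replicate 2 gave medians of 1.32 in 61R/R MEFs, 1.00 in 61H/H MEFs and 1.00 in 61P/P MEFs, with 51 members higher in 61H/H MEFs, 50 in 61P/P MEFs and, between mutants, 33 in 61R/R over 61P/P (all genes 19.2%, 10% and 7.15%). Both libraries had been picked from the members' own values, so these counts are not independent support. Fits of only the 2 genotypes compared, which have fewer samples, called 0 in 61R/R MEFs, 7 in 61H/H MEFs and 0 in 61P/P MEFs (all genes higher 0%, 13.2% and 1.11%), and 1 member, Hist1h4k, lower in 61H/H than in 61P/P MEFs (all genes lower 2.92%). DESeq2 called 39 in 61H/H MEFs and 35 in 61P/P MEFs, and limma-voom 37 and 14 (all genes higher 16.1% and 7.39% by DESeq2, 14.1% and 2.93% by limma-voom). Embryo sex as a covariate left 1 in 61P/P MEFs (all genes 2.57%). With the replicate block, which the numbers do not justify as a pairing, 46 members were higher in 61R/R MEFs, 32 in 61H/H MEFs and 11 in 61P/P MEFs (all genes 9.94%, 14.3% and 2.93%). The cause of these shifts was not tested. Other scalings and low-count filters moved no count of members by over 1.5 times. With 3 cultures a genotype and one wild-type culture at the level of the mutants, the calls depend on single libraries more than the medians do, and how far a single copy can be told from its paralogs limits each member's value.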
